A study of Mus musculus with 18 samples.

Results

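The genes described here take up long-chain fatty acids into the enterocyte, carry them through its cytosol and activate them to acyl-CoA. The 8 members are *Cd36*, *Slc27a1*, *Slc27a2*, *Slc27a4*, *Fabp1*, *Fabp2*, *Acsl3* and *Acsl5*, picked by name out of 37074 gene names on the array. Earlier results of these data were known when they were picked, so counts of called members are descriptions. A gene with several probes was represented by the probe with the highest mean signal over all arrays. All 8 passed the filter on dim probes, so none was left out, and 21537 gene names were tested.

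Ileum cells of 18 mice on a C57BL6/J background were measured on Agilent SurePrint G3 Mouse GE one-colour arrays, 1 array per mouse, and the labels call the samples single cells of the ileum although each array holds the RNA of a whole cell suspension. The groups were 6 Pgc1α fl/fl mice on chow (labels iPGC1afl/fl and CHOW), 6 Pgc1α fl/fl mice on a Western diet (WD; HFD in the labels) and 6 iPgc1α-/- mice on WD (iPGC1a-/- and HFD). All mice carried the floxed alleles, and in iPgc1α-/- mice a Cre driven by the villin promoter, active in the intestinal epithelium, removed exons of the gene for Pgc1α, so immune and stromal cells in the suspension kept it. Diets ran for 8 weeks from the age of 8 weeks, with 42% of the energy in WD coming from fat and a total cholesterol content of 0.2%. All mice had been fasted overnight when they were killed, at Zeitgeber time 3, so the levels are those of fasted animals. The fourth combination, knockout mice kept on chow, was not analysed here.

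After fat digestion, free fatty acids reach the brush border of the enterocyte. CD36 is a scavenger receptor of the plasma membrane that binds long-chain fatty acids, and the FATP proteins of the *Slc27a* family are acyl-CoA synthetases tied to membranes that draw fatty acids inwards by esterifying them to CoA. Inside the cell, the liver-type and intestinal-type fatty acid binding proteins (*Fabp1*, *Fabp2*) hold the poorly soluble chains in the cytosol, and the long-chain acyl-CoA synthetases (*Acsl3*, *Acsl5*) commit them to re-esterification, membrane lipids or oxidation. Several of these genes are textbook targets of PPARα, a nuclear receptor that fatty acids activate and for which Pgc1α is a coactivator.

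Each value below is the log2 of a probe's median signal after normalization between arrays, and it is compared only with the same probe on other arrays, since the brightness of different probes depends on their sequence. A gene is called when limma's Benjamini-Hochberg adjusted p, over 32726 probes, is 0.05 or lower and the fold change is above 1.5. To show what was read out, the first 30 of the 60 bases are given for the probes of the 4 members called in any comparison (5′ to 3′, transcript strand, positions on mm9 as in the array files). The *Cd36* probe (A_51_P375146) lies at chr5:17288600-17288659 on the minus strand, the *Fabp1* probe (A_51_P487818) at chr6:71154906-71154965 on the plus strand, the *Slc27a2* probe (A_55_P2077153) at chr2:126413890-126413949 on the plus strand, and the brighter *Slc27a4* probe (A_51_P408609) at chr2:29672404-29672464 on the plus strand.
Cd36: aagaatgaaaaatgaacaattcacatgtga
Fabp1: attgggcgacattgtctacaagagagtcag
Slc27a2: atgtgcacctgccatttgtccttgcaaact
Slc27a4: tctgcacccgggctgagactgacggcacct

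These probes start at base 2390 (*Cd36*), 380 (*Fabp1*), 2211 (*Slc27a2*) and 3369 (*Slc27a4*) of the transcript each was designed on. The other members are read at chr8:74110256-74110315 (*Slc27a1*), chr3:122602276-122602335 (*Fabp2*), chr1:78703500-78703559 (*Acsl3*) and chr19:55368743-55369331 (*Acsl5*, a probe whose 60 bases span an intron), all on the plus strand. *Slc27a4* and *Acsl3* have 2 probes each and *Acsl5* has 3, of which the one designed on the opposite strand was not well above background on any array. No annotation on mm9 was used here, so exon and UTR borders are not given.

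On 18 arrays between 56.3% and 62.3% of the 59305 non-control spots were well above background, and 0 spots were saturated. Slides were inferred and not read from a label: arrays with the same scan date in the scanner output were taken as a slide. Each of the 3 slides so defined carried 2 arrays from every group. All 8 listed markers of the distal small intestine passed the filter on dim probes, among them *Fabp6*, the ileal bile acid binding protein (16.24 to 17.95 over the mice), and *Fgf15*, the ileal hormone (5.60 to 7.68 on chow). All 9 listed proximal markers passed as well, so passing the filter does not tell the regions apart. The epithelial gene *Vil1* lay between 16.13 and 16.65. Both probes of *Ppargc1a*, which encodes Pgc1α, start at bases 2473 and 2964 of the transcript, outside the deleted exons. On WD the brighter probe gave 11.38 ± 0.07 in Pgc1α fl/fl and 11.67 ± 0.26 in iPgc1α-/- mice (SD, n = 6). These levels check nothing about the deletion, and genotypes are given as labelled. One array stood apart among those on chow: replicate 4 had the lowest *Cd36*, *Fabp1*, *Acsl5* and *Ppargc1a* of the 6. Its mean was the lowest for enterocyte markers (15.09, the others 15.44 to 15.66), proximal intestine markers (9.60, the others 10.40 to 10.70) and villus tip markers (12.09, the others 12.59 to 13.27). It was the highest for crypt stem and cycling markers (10.26, the others 9.52 to 9.99). Results that rest on this array are also given without it.

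WD raised the mRNA of *Cd36*, *Fabp1* and *Slc27a2* in Pgc1α fl/fl mice, by 3.83-fold, 1.84-fold and 1.67-fold. These 3 of 8 members were called higher and 0 lower, where 3.22% of all gene names were called higher, 5.2% lower and 8.43% in either direction. With no fold threshold, *Slc27a4* and *Acsl5* passed as well, 5 of 8 against a background of 10.4% higher, and 0 members were lower, also at an unadjusted limma p under 0.05. All 8 differences were positive, with a median of 0.47 on the log2 scale against 0.0032 over all gene names. In each of the 18 fits that left out 1 array, 3 members were called higher and 0 lower.

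*Cd36* showed the largest diet difference of the members. On chow the 6 mice lay at 6.28 (lowest), 7.76 (median) and 8.37 (highest), and on WD at 9.44, 9.60 and 9.69. The groups did not overlap, as for 5.12% of all gene names in the higher direction, and the spread on chow (SD 0.74, n = 6) was wider than on WD (SD 0.11, n = 6). The difference was 1.94 ± 0.24 (log2, SE; 95% interval 1.43 to 2.44; adjusted p = 1.1e-05). Replicate 4, at 6.28, was the lowest mouse on chow, and without it the difference was 1.67 ± 0.16 (adjusted p = 8.7e-07). Within the 3 slides it was 1.52, 1.65 and 2.65, and the last of these slides held replicate 4. For scale, the raw median signal of this probe ran from 82 to 340 intensity units on chow and from 497 to 958 on WD.

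*Slc27a2*, which encodes FATP2, a synthetase for very long and long chains, was at 11.75, 12.15 and 12.61 on chow and at 12.55, 12.95 and 13.27 on WD (lowest, median and highest of 6). One WD mouse fell just under the highest chow mouse, so the groups overlapped. The difference was 0.74 ± 0.15 (SE; 95% interval 0.43 to 1.06; adjusted p = 0.0013), with 0.59, 0.69 and 0.95 within the slides.

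*Slc27a4* encodes FATP4, the main FATP of the enterocyte. Its brighter probe gave 8.92, 9.29 and 9.47 on chow and 9.40, 9.72 and 10.03 on WD. A single WD mouse, replicate 1 at 9.40, lay within the chow range. The difference of 0.48 ± 0.12 (SE; 95% interval 0.23 to 0.74; adjusted p = 0.0070), or 1.40-fold, passed the test but not the fold threshold, and the other probe gave 0.46 ± 0.11 (adjusted p = 0.0038). Within slides the brighter probe differed by 0.43, 0.60 and 0.43.

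*Slc27a1* (FATP1), better known from muscle and fat, had the lowest and the highest mouse on chow at 7.38 and 7.96 (median 7.58) and on WD at 7.65 and 7.89 (median 7.82). The WD range lay inside the chow range. A difference of 0.17 ± 0.12 (SE) did not pass the test (adjusted p = 0.33), and its 95% interval, -0.08 to 0.42, stayed below 1.5-fold.

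**Figure D1:**
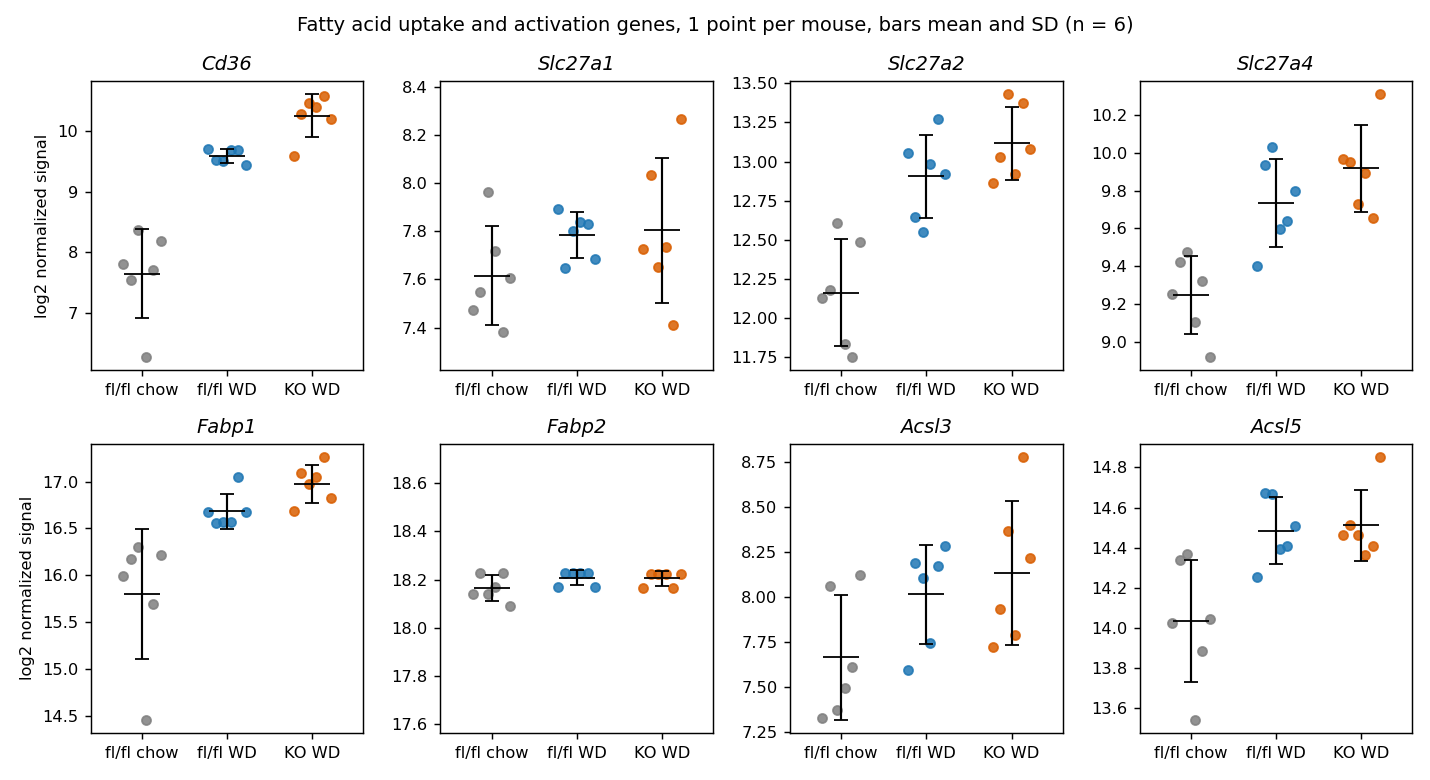
Log2 normalized signal of the brightest probe of each of the 8 genes (vertical axis, one scale per panel), 1 point per mouse for Pgc1α fl/fl on chow (grey), Pgc1α fl/fl on WD (blue) and iPgc1α-/- on WD (orange, KO WD), with the mean and SD of 6 mice as black bars. Cd36 and Fabp1 show no overlap between chow and WD, while Fabp2 stays between 18.09 and 18.23 in every mouse.

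Among the cytosolic carriers, *Fabp1* was higher on WD. The mice lay at 14.46, 16.08 and 16.30 on chow and at 16.56, 16.62 and 17.05 on WD, with no overlap. The difference was 0.88 ± 0.22 (SE; 95% interval 0.42 to 1.34; adjusted p = 0.0068). Replicate 4 on chow, at 14.46, was again the lowest, and without it the difference was 0.61 ± 0.12 (adjusted p = 0.0015), still above the fold threshold of 0.585 on the log2 scale. Within slides it was 0.66, 0.67 and 1.31, the last on the slide of replicate 4.

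*Fabp2*, the intestinal-type carrier, was among the brightest probes of every array, ranking between 2 and 6 of 32726 by raw signal. On chow it lay at 18.09, 18.15 and 18.23 and on WD at 18.17, 18.23 and 18.23. The difference was 0.04 ± 0.05 (SE; 95% interval -0.07 to 0.16; adjusted p = 0.62). The normalization gives probes of equal rank nearly equal values, so at the top of the range it leaves little room for a difference. Over the processing alternatives, which include scaling each array to its 75th percentile, the difference reached at most 0.24, with an adjusted p of 0.31 or higher.

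The synthetases of the endoplasmic reticulum, mitochondria and lipid droplets followed with smaller differences. *Acsl5*, abundant in small intestinal epithelium, was at 13.54, 14.04 and 14.37 on chow and at 14.25, 14.46 and 14.67 on WD. It differed by 0.45 ± 0.12 (SE; 95% interval 0.19 to 0.71; adjusted p = 0.012), or 1.37-fold, past the test but under the fold threshold, and 1 WD mouse, at 14.25, lay within the chow range. Its second measured probe gave 0.30 ± 0.11 (adjusted p = 0.053). *Acsl3*, a lipid droplet synthetase, was at 7.33, 7.55 and 8.13 on chow and at 7.60, 8.14 and 8.28 on WD, with wide overlap. A difference of 0.35 ± 0.18 (SE; 95% interval -0.02 to 0.72; adjusted p = 0.17) did not pass, and within slides it was 0.83, -0.02 and 0.23.

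Genotype moved no member past the test. Between iPgc1α-/- and Pgc1α fl/fl mice on WD, 0 of 8 members were called by limma, where 0.135% of all gene names were called (0.228% with no fold threshold). In 1 member, *Cd36*, limma's unadjusted p was under 0.05. The share of all gene names at that limit was not counted, so this number cannot be set against a background. The differences of the members had a median of 0.15 against 0.0059 over all gene names, and 7 of 8 were positive, a number that ran from 5 to 8 with the normalization or weighting used.

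In iPgc1α-/- mice on WD, *Cd36* was at 9.58, 10.34 and 10.57 (lowest, median and highest of 6). Of these, 5 of the 6 mice lay above all Pgc1α fl/fl mice on WD, and replicate 1, at 9.58, lay among them. That mouse also had the lowest mean level of the proximal markers (10.41, the others 10.66 to 11.21) and the highest of the distal markers (12.81, the others 12.10 to 12.75) among the iPgc1α-/- mice. The median over mice of the proximal level on WD was 10.84 in iPgc1α-/- against 10.55 in Pgc1α fl/fl mice; that of the distal level was 12.41 against 12.53. Their part in the *Cd36* difference was not tested. The difference was 0.66 ± 0.24 (SE; 95% interval 0.15 to 1.17), 1.58-fold, with an adjusted p of 0.42, and it was 0.82, 0.70 and 0.46 within the slides. Over the alternatives the adjusted p ran from 0.074, with only these groups in the fit, to 0.52, and with 1 array left out from 0.095, without replicate 4 on chow, to 0.72.

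*Fabp1* stood at 16.69, 17.01 and 17.26 in iPgc1α-/- mice, 0.30 ± 0.22 above Pgc1α fl/fl mice on WD (SE; 95% interval -0.16 to 0.76; adjusted p = 0.68). *Slc27a2* stood at 12.87, 13.05 and 13.43, a difference of 0.21 ± 0.15 (95% interval -0.10 to 0.53; adjusted p = 0.66). For *Slc27a4* the values were 9.66, 9.92 and 10.31, a difference of 0.18 ± 0.12 (95% interval -0.07 to 0.44; adjusted p = 0.65), and 0.21 ± 0.11 at the other probe (95% interval -0.01 to 0.44; adjusted p = 0.54). In all 3 genes the ranges of the genotypes overlapped.

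Smaller genotype differences were measured in the remaining members. *Acsl5* lay at 14.36, 14.46 and 14.85 in iPgc1α-/- mice (difference 0.03; 95% interval -0.23 to 0.28) and *Acsl3* at 7.73, 8.08 and 8.78 (0.12; -0.25 to 0.49). *Slc27a1* lay at 7.41, 7.73 and 8.27 (0.02; -0.23 to 0.27) and *Fabp2* at 18.16, 18.22 and 18.22 (-0.0028; -0.12 to 0.11). The adjusted p of these 4 was 0.86 or higher, and the intervals of *Acsl5*, *Acsl3*, *Slc27a1* and *Fabp2* all stayed within 1.5-fold in either direction.

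**Figure D2:**
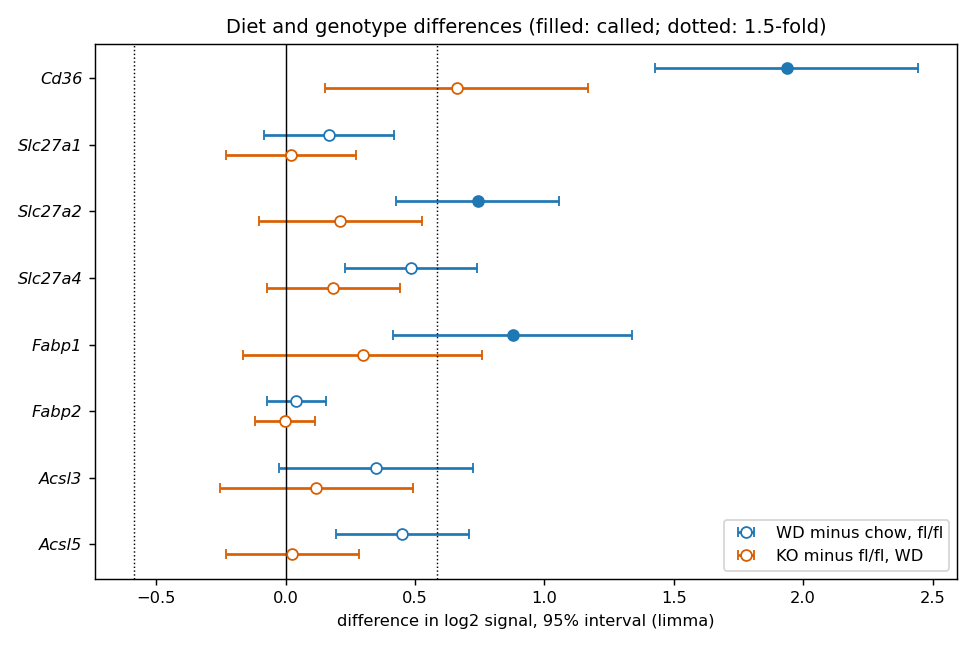
Difference in log2 signal of the 8 genes (horizontal axis) with limma's 95% interval, for WD minus chow in Pgc1α fl/fl mice (blue) and iPgc1α-/- (KO) minus Pgc1α fl/fl mice on WD (orange); filled points are called, and dotted lines mark 1.5-fold. Cd36, Slc27a2 and Fabp1 are filled for diet, no point is filled for genotype, and the genotype interval of Cd36 runs from 0.15 to 1.17.

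Ordered by level, the means of *Cd36*, *Fabp1*, *Slc27a2*, *Slc27a4*, *Acsl5*, *Acsl3* and *Slc27a1* all ran from Pgc1α fl/fl on chow through Pgc1α fl/fl on WD to iPgc1α-/- on WD, but the upper pair of neighbours passed the test in none of them. The upper step was only 0.03 in *Acsl5* and 0.02 in *Slc27a1*, and changed sign in 3 and 2 of 15 processing alternatives. In *Acsl3* it changed sign in 1 of 18 fits with 1 array left out. Between the ends of that order, which differ in diet and genotype at once, *Cd36* was 6.05-fold higher in iPgc1α-/- mice on WD, *Fabp1* 2.26-fold, *Slc27a2* 1.94-fold and *Slc27a4* 1.59-fold. These 4 of 8 members were called higher, where 4.94% of all gene names were. In all 4 the groups did not overlap, as was so for 7.54% of all gene names in the higher direction. The 3 comparisons share groups, so their values are given side by side and are not independent of each other.

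**Figure D3:**
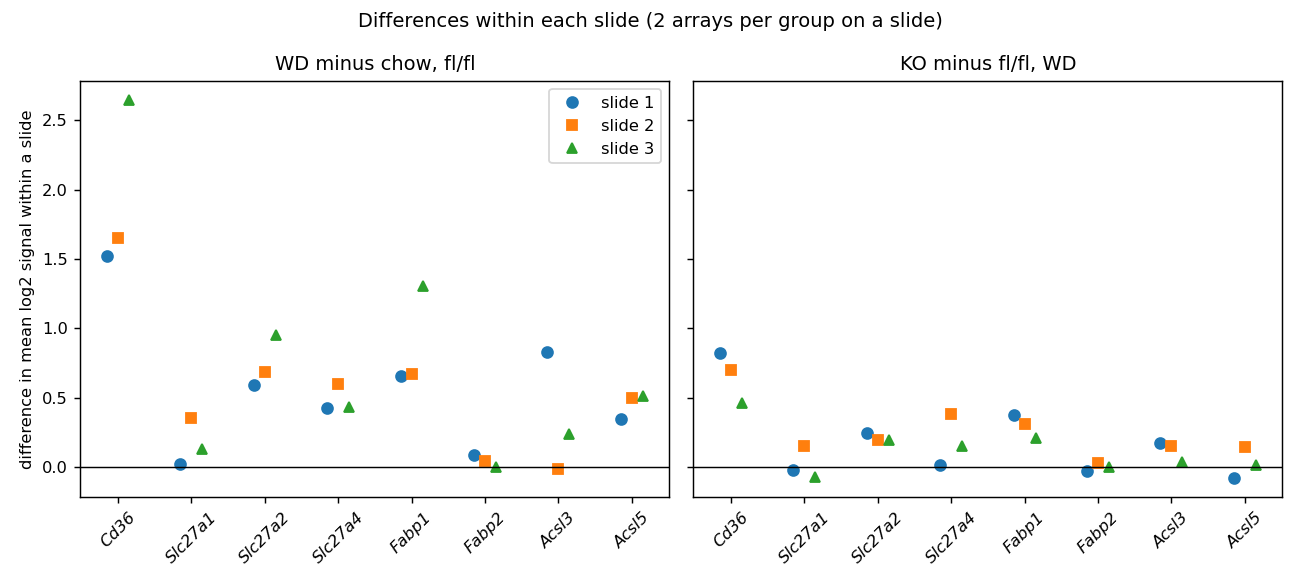
Difference in mean log2 signal within each of the 3 slides (vertical axis; 2 arrays per group and slide) for WD minus chow (left) and iPgc1α-/- (KO) minus Pgc1α fl/fl on WD (right). Cd36, Slc27a2, Slc27a4, Fabp1 and Acsl5 are above 0 on every slide for diet, and Cd36, Slc27a2, Slc27a4, Fabp1 and Acsl3 are above 0 on every slide for genotype.

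The 3 called members varied together from mouse to mouse. After each group's mean was taken away, Pearson's r over the 18 arrays was 0.89 (Spearman's rho 0.66) between *Cd36* and *Fabp1*, 0.64 (0.68) between *Cd36* and *Slc27a2* and 0.63 (0.68) between *Fabp1* and *Slc27a2*. Without replicate 4 on chow these were 0.64 (0.63), 0.68 (0.73) and 0.77 (0.70) over 17 arrays. *Slc27a4* deviated with *Acsl5* (r = 0.73) and not with *Cd36* (r = -0.07). All are descriptions over arrays that also share slide, hybridization and cell suspension, and 28 pairs of members were computed.

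**Figure D4:**
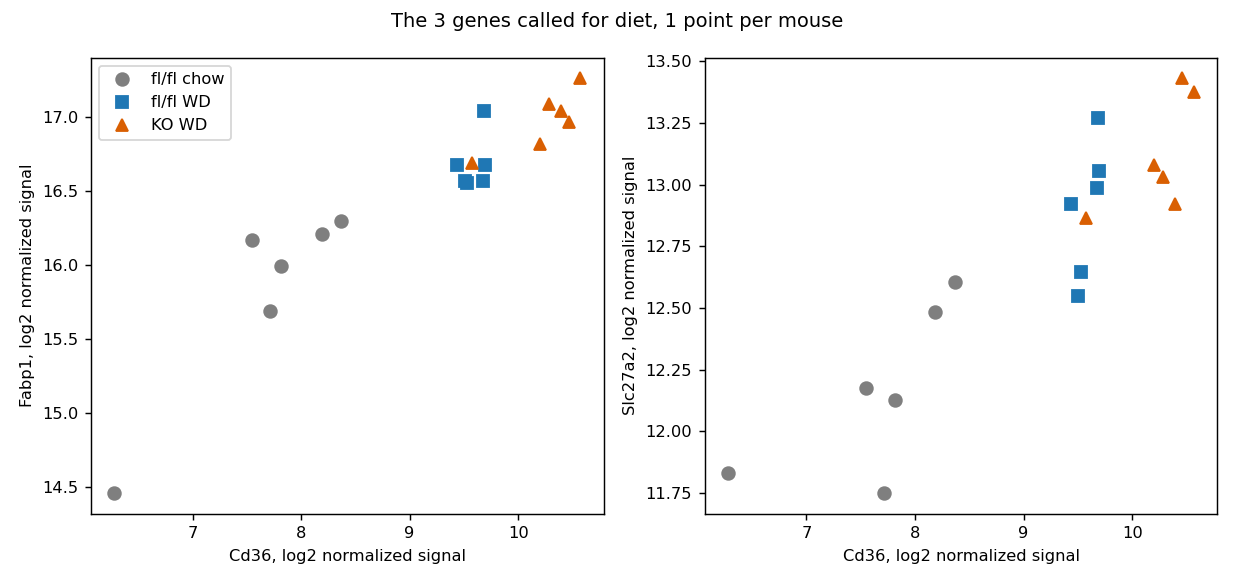
Log2 normalized signal of Fabp1 (left) and Slc27a2 (right) against that of Cd36, 1 point per mouse for Pgc1α fl/fl on chow (grey circles), Pgc1α fl/fl on WD (blue squares) and iPgc1α-/- on WD (orange triangles, KO WD). The chow mouse at 6.28 for Cd36 and 14.46 for Fabp1 is replicate 4, and the iPgc1α-/- mouse at 9.58 for Cd36 is replicate 1.

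Likeness over all 18 arrays was measured by Pearson's r of the levels themselves, which holds the differences between groups. Of 21464 other gene names, those most like *Cd36* were *Cyp2d10* (r = 0.98), *Apoc2*, an apolipoprotein that activates lipoprotein lipase (0.98), and the transcript AK158451 (0.98). Closest to *Fabp1* were *Ephx2*, the soluble epoxide hydrolase (0.96), *Cyp4v3*, a fatty acid hydroxylase (0.95), and *Ppap2a*, a lipid phosphate phosphatase (0.95). For *Slc27a2* they were *Pdk4*, the kinase that inhibits pyruvate dehydrogenase (0.93), the transcript AK051762 (0.92) and *Cd36* itself (0.91). With each group's mean taken away, r was between 0.88 and 0.90 for the genes named beside *Cd36*, 0.87 to 0.91 beside *Fabp1* and 0.64 to 0.74 beside *Slc27a2*. Without replicate 4 on chow as well, it was 0.65 to 0.70, 0.26 to 0.52 and 0.68 to 0.74.

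To show the regulatory sequence beside the members that rose together, the 250 bases before the RefSeq start of *Fabp1*, *Cd36* and *Slc27a2* are given on GRCm38.p6, 5′ to 3′ on the gene's strand, at chr6:71199629-71199878 (plus), chr5:17835897-17836146 (minus) and chr2:126552774-126553023 (plus). Capitals mark exact matches on either strand to AGGNCANAGGNCA, a direct repeat of the kind bound by PPAR and HNF4 dimers, or to TATAAA, the TATA box. Another pattern, GTTAATNATTAAC, of the kind bound by HNF1, had no match in them.
Fabp1: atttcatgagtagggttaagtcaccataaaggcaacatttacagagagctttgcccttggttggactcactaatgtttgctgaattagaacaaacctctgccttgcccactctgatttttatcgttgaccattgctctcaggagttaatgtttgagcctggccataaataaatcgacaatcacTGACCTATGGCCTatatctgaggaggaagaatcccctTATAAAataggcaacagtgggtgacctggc
Cd36: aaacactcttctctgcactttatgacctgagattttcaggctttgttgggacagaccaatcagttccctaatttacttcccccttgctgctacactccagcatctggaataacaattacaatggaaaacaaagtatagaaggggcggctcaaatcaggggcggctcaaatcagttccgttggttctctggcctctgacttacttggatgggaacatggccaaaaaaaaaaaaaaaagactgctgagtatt
Slc27a2: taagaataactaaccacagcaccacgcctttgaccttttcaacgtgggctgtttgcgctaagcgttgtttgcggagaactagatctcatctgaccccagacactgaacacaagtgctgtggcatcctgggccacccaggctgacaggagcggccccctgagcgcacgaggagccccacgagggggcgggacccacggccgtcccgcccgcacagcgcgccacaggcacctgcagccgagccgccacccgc

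The direct repeat lay in 0.338% of all 32851 windows of this length and, among the 10 windows of the members (*Slc27a1* has 3), in that of *Fabp1*, from base -67 to -55 on the opposite strand. TATAAA lay in 12.4% of all windows and, among the members, again only in that of *Fabp1*, from -30 to -25, while GTTAATNATTAAC lay in 0.00913% of all windows and in 0 of the members'. The patterns do not overlap each other there. The share of G and C ran from 35.6% (*Fabp2*) to 75.6% (*Acsl3*) over the members' windows, with 42.8% for *Fabp1*, 43.2% for *Cd36* and 64% for *Slc27a2*. A match is a description of letters and no evidence of binding, and its absence says only that these letters are not in this window.

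Around the members, other genes that bind, activate or sense fatty acids moved in both directions with diet. Of 70 listed genes 55 were tested, and 6 were called higher and 5 lower, with a median difference of -0.03. Over all gene names 3.22% were called higher and 5.2% lower, with a median of 0.0032. Of the listed genes 0 were called for genotype by limma, where 0.135% of all gene names were. At an unadjusted p under 0.05 there were 4, and the share of all gene names at that limit was not counted.

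Of 6 other membrane uptake genes tested, 0 were called for diet by limma, and *Got2* at -0.50 and *Slc27a5* at 0.34 passed without the fold threshold. *Cav1*, *Cav2* and *Slc27a6* were not tested, being too dim. Of 10 other binding proteins 1 was called, *Scp2*, the sterol carrier protein of peroxisomes, which rose from 14.78 ± 0.19 to 15.42 ± 0.09 (SD, n = 6), a difference of 0.64 ± 0.09 (SE; adjusted p = 2.1e-05). The acyl-CoA binding proteins *Acbd4* (0.36), *Acbd5* (0.58) and *Dbi* (0.25) were higher and *Acbd6* (-0.33) lower without the fold threshold. *Fabp6*, despite its name a bile acid carrier, differed by -0.11 ± 0.21 (adjusted p = 0.76).

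Acyl-CoA synthetases split. Of 11 others tested, *Acsm5*, a medium-chain synthetase (0.95 ± 0.12, SE), and *Acss1*, which activates acetate in mitochondria (1.04 ± 0.16), were called higher on WD. *Aacs*, which activates acetoacetate for lipid synthesis, fell by 1.08, *Acsbg1*, of the bubblegum family, fell by 0.97, and *Acsl4*, which prefers arachidonic acid, fell by 0.65. Their adjusted p lay between 1.4e-05 and 1.1e-04. *Acsbg1* and *Acsl4* were dim, at 6.25 ± 0.35 and 6.39 ± 0.20 on chow and 5.28 ± 0.14 and 5.74 ± 0.17 on WD (SD, n = 6). *Acsbg1* was not well above background on every array. The call of *Acsl4* was lost in 2 of 15 processing alternatives, in which it differed by -0.42 (normexp) and -0.38 (mean of all probes), and *Acsbg1* ran from -1.76 to -0.60 over 14 alternatives, called in each. *Acsl1*, the best known long-chain synthetase of liver and fat, differed by 0.25 ± 0.16 (adjusted p = 0.29). Among *Acsl1*, *Acsl3*, *Acsl4* and *Acsl5*, only *Acsl4* was lower on WD, and differences between these genes were not tested.

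Of 13 acyl-CoA thioesterases, which release fatty acids from CoA, *Acot12* (1.40 ± 0.22, SE; 2.64-fold) and *Acot4* (0.60 ± 0.15; 1.52-fold) were called higher and 0 lower, the call of *Acot4* being lost in 3 of 15 processing alternatives (0.52 to 0.58) and when any 1 of 5 arrays was left out, while *Acot7*, *Acot9* and *Acot10* were lower and *Acot5* and *Acot13* higher only without the fold threshold. Among 3 fatty acid receptors, *Ffar4* (GPR120), a receptor for long chains, was lower by 0.60 ± 0.18 (SE; adjusted p = 0.018), and *Ffar2*, for short chains, was lower (-0.56) without the fold threshold. The call of *Ffar4* was lost in 6 of 15 processing alternatives and when any 1 of 4 arrays was left out. Of 12 transcription factors known to act on such genes, *Ppara* rose by 1.63 ± 0.11 (SE) from 11.38 ± 0.18 on chow (SD, n = 6), 3.09-fold (adjusted p = 7.8e-09), and *Pparg* fell by 0.64 ± 0.17 (SE; adjusted p = 0.0081), a call lost with array weights (-0.56) and when either of 2 arrays was left out. *Ppara* was at 13.08 ± 0.20 in iPgc1α-/- mice on WD, 0.07 above Pgc1α fl/fl mice on WD (adjusted p = 0.85). The intestinal factors *Hnf4a* (-0.13), *Cdx2* (-0.09) and *Gata4* (-0.05) did not pass.

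**Figure D5:**
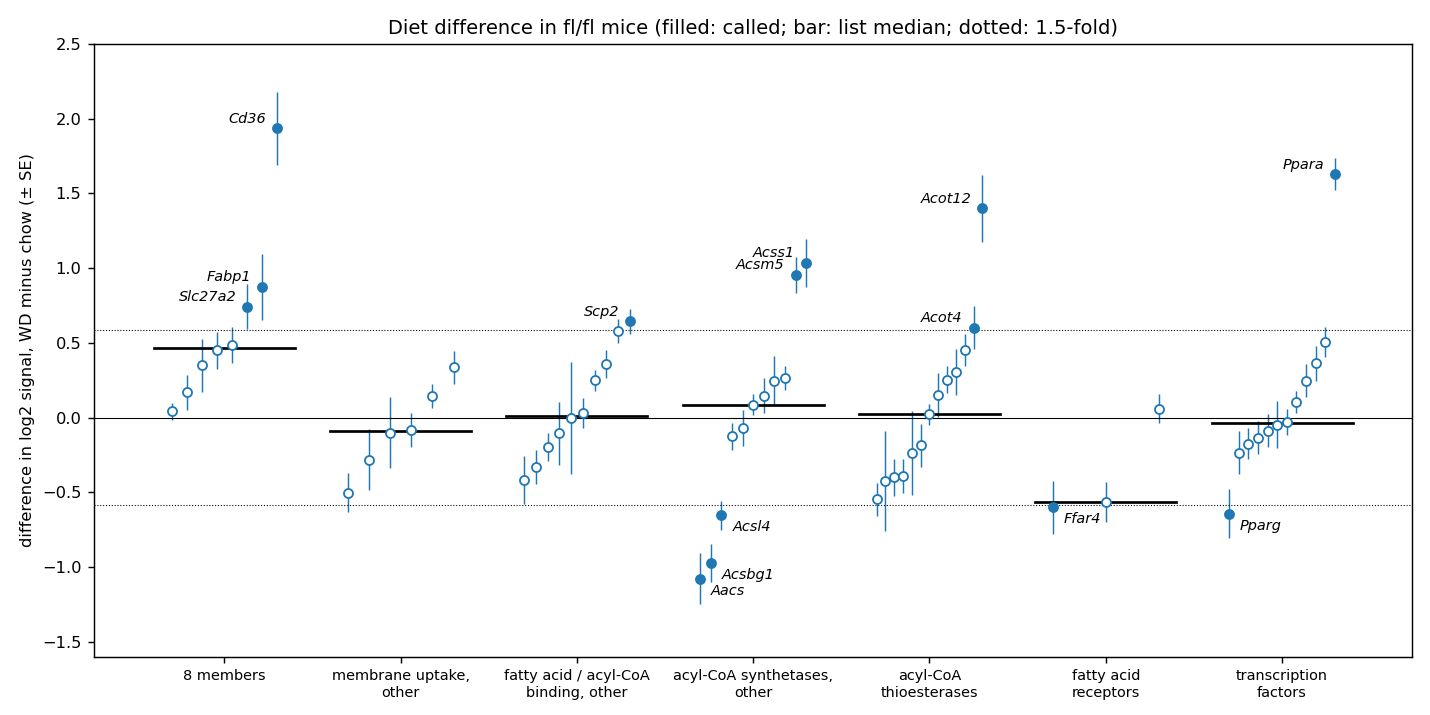
Difference in log2 signal, WD minus chow in Pgc1α fl/fl mice, with its SE (vertical axis) for every tested gene of the members and of 6 related lists; filled points are called, black bars are list medians and dotted lines mark 1.5-fold. The members' median lies at 0.47, while the medians of the other lists lie between -0.56 (fatty acid receptors) and 0.09 (other acyl-CoA synthetases).

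Markers of other cell types in the suspension also moved with diet, and in bulk samples fewer cells of a type and less RNA per cell cannot be told apart. For scale, 3.22% of all gene names were called higher on WD and 5.2% lower. Of 9 T cell and intraepithelial lymphocyte markers 8 were called lower on WD (median difference -1.59), and their mean level ran from 9.65 to 11.07 on chow and from 8.86 to 9.43 on WD (8.94 to 9.61 in iPgc1α-/- mice). Of 8 B and plasma cell markers 6 were lower (median -1.81; mean level 7.95 to 9.52 on chow, 6.31 to 8.12 on WD and at most 7.86 in iPgc1α-/- mice), and of 8 goblet cell markers 6 were lower (median -0.73; mean level 15.14 to 15.55, 14.14 to 15.19 and 14.40 to 15.06 in the same order). Of 10 enterocyte markers 3 were higher, the brush border or lipid genes *Alpi*, *Apoa4* and *Treh*, and 0 lower, with a mean level of 15.09 to 15.66 on chow and 15.68 to 16.06 on WD (15.91 to 16.31 in iPgc1α-/- mice). *Vil1* differed by 0.20 ± 0.08 (SE; adjusted p = 0.094). Regional markers were mixed: of 9 proximal markers 3 were higher and 2 lower. Of 8 distal markers 1 was higher, *Fgf15* (2.47), and 3 were lower, *Slc10a2* (-1.07), *Slc51b* (-0.94) and *Nr1h4* (-0.78). Of 7 villus tip markers 3 were lower (*Egfr*, *Nt5e* and *Slc28a2*; median -0.40), and 0 higher. Of 9 crypt stem and cycling markers 2 were lower (*Ccnb1* and *Top2a*; median -0.23), and of 6 Paneth cell markers 2 (*Mmp7* and *Pla2g2a*). Of 8 enteroendocrine and 5 tuft cell markers 1 each was lower (*Chga* and *Trpm5*), and 0 in these lists were higher. Whether these shifts carry part of the members' diet differences was not tested.

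*Cd36* is also made by adipocytes, endothelial cells and macrophages. The defining markers *Adipoq* of adipocytes and *Cdh5*, *Kdr*, *Tek* and *Emcn* of endothelial cells were not tested, being too dim. Of the remaining markers, 0 of 5 adipocyte and 0 of 4 endothelial genes were called for diet (median over mice of the mean level of the endothelial genes 5.90 on chow, 5.92 on WD and 5.96 in iPgc1α-/- mice on WD; of the adipocyte genes 7.29, 7.33 and 7.48), and of 7 macrophage and dendritic cell genes 2 were lower and 0 higher. Without the fold threshold, the adipocyte gene *Cidec* passed as higher on WD (0.53 ± 0.19, SE, limma's adjusted p = 0.047), the direction of *Cd36*, and 0 adipocyte genes passed as lower. For genotype, 0 of 111 tested marker genes were called by limma, where 0.135% of all gene names were. At an unadjusted p under 0.05 there were 13, a limit at which the share of all gene names was not counted. Among the 5 adipocyte genes the median genotype difference was 0.23, and 3 were positive, the direction of that of *Cd36*. They were *Cfd* at 0.67 ± 0.35 (SE, adjusted p = 0.55), *Retn* at 0.43 ± 0.11 (limma's unadjusted p = 7.9e-04, adjusted p = 0.17) and *Lep* at 0.23 ± 0.14. The others, *Cidec* (-0.08 ± 0.19) and *Plin1* (-0.18 ± 0.09), went the other way. *Retn* was dim, with means of 5.21 in Pgc1α fl/fl and 5.65 in iPgc1α-/- mice on WD. The part of these genes in the *Cd36* difference was not tested.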

How the data were processed

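RNA of ileum cells from 18 mice was hybridised to one-colour Agilent arrays for mouse genes. The authors deposited scanner output holding a median signal intensity and a background intensity for each spot, and a table of log2 values of the same arrays, whose values the authors filtered, batch-corrected and normalized. Here the deposited median signal intensity was used, and the log2 table (33095 probes, column medians between 7.44 and 7.45, centring unstated) served as an alternative. Control and outlier spots were left out, spots averaged per probe, and a probe kept when 5 or more of the 6 arrays in any group had it well above background, which left 32726 of 56605 probes. Log2 signals were normalized with a re-implementation of smooth quantile normalization (window 0.05), and a 3-group model was fitted with limma 3.58.1 in R 4.3.3, with Benjamini-Hochberg adjustment over all probes. The model was also run on simulated data with planted differences, drawn as independent normal values with the same spread in every group. The real groups can differ in spread, as for *Cd36*, and that run does not test such a case. The wash and labelling batches the methods correct for were not repeated, since the labels do not name them; slide was tried as a block. Precision is limited by the 6 arrays per group, with a median SE of 0.104, and p-values measure the spread between mice.

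The members and gene lists were chosen with earlier results of these data known. Called markers are named in some lists and only counted in others. The text further names the members, listed pathway genes that were called and the 3 gene names most like each called member. Other listed genes named with values were chosen after these were seen. Alternatives were other background corrections, scalings, filters, blocks, variance models, thresholds and probe rules, and leaving out each array. Promoter windows are from RefSeq on GRCm38.p6 (all 8 members matched), while probe positions are on mm9 as the array files give them. No column of the files lacked a sample.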

Additional observations from a re-analysis of the deposited data

Results flagged for a closer look

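Of 39 groups of 6 arrays tested for a single distant value by Dixon's gap-to-range ratio, 4 held one, and chance alone flags about 1 group in 20. *Cd36* in iPgc1α-/- replicate 1 on WD was at 9.58 with the nearest mouse at 10.20, a gap of 0.627 of the group's range. *Fabp1* in replicate 4 on chow was at 14.46 with the nearest at 15.69, a gap of 0.669 of the range. *Fabp1* in Pgc1α fl/fl replicate 5 on WD was at 17.05 with the nearest at 16.68, a gap of 0.754. *Acsl5* in iPgc1α-/- replicate 6 on WD was at 14.85 with the nearest at 14.51, a gap of 0.690.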

How the results depend on the processing

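The 3 members called higher for diet numbered 3 in every fit with 1 array left out and in 14 of 15 processing alternatives, and 5 with no fold threshold; 0 were called for genotype in any of them. Listed pathway genes called lower for diet numbered 3, against 5, with normexp and quantile normalization and 3 with array weights. With no fold threshold they numbered 15 higher and 11 lower, and all gene names called 5293 for diet (against 1815), 49 for genotype (against 29) and 7925 for both together (against 2541); at an adjusted p of 0.01, 14 were called for genotype, and 19 to 40 with 1 array left out. Genotype differences near 0 changed sign: *Acsl5* was -0.0492 with background-subtracted and -0.0409 with median signal scaled to the 75th percentile and -0.0264 with array weights, *Slc27a1* -0.0007 with that median scaling and -0.0682 with array weights, and *Fabp2* 0.0157 with normexp and 0.0000 with quantile normalization and the authors' log2 values. With 1 array left out they ran from -0.0679 to 0.082 (*Slc27a1*), -0.0119 to 0.0058 (*Fabp2*), -0.0397 to 0.0621 (*Acsl5*) and -0.0261 to 0.2049 (*Acsl3*). The cause was not tested. Deviations of same-numbered arrays of different groups had a mean r of 0.10 (above 0.1 in 9 of 18 pairs) and those of other arrays a mean of -0.02 (23 of 90); since not every same-numbered pair exceeded 0.1 and the labels tie no numbers together, the numbers were not taken to pair the mice. With the replicate number as a block 3 members were called for diet, 0 for genotype and 4 for both, with 1828, 25 and 2575 gene names. *Acsbg1* gave no value under the stricter filter. Signal over background limits the dimmest genes, and precision rests on 6 arrays a group.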
